A study of Mus musculus with 12 samples.

Results

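Microtubule-associated proteins bind the tubulin polymers that carry cargo along axons and dendrites, and they set how stable, bundled or dynamic those polymers are. In neurons they also mark compartments and stages: MAP2 and MAP1A are found mainly in dendrites, tau mainly in axons, and doublecortin in young, migrating neurons. The 10 genes described here, Map1a, Map1b, Map1s, Map2, Mapt, Map4, Map6, Map7d1, Dcx and Stmn2, were taken by name from the 49489 gene rows of the total RNA count table as a set named with earlier results of these data known; no threshold on a measured value entered the rule. All 10 had a row and passed the filter on low counts that 20049 genes passed.

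The libraries came from a Gas5 pulldown in primary mouse hippocampal neurons, prepared from newborn pups and kept until day 16 in vitro. Gas5 is a long noncoding RNA. The total RNA assay had 3 libraries named antisense and 3 named sense, and neither genotype nor drug treatment is given for any of them. The labels do not state which name stands for the capture and which for the control, nor whether the replicates were separate cultures. The p-values therefore weigh each difference only against the spread among these particular libraries within a group, which may be technical.

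Total counts ranged from 5775052 to 10424167 per library. Gas5 took 9.71% to 14.2% of the counts in antisense and 32.7% to 57.1% in sense, so every level below is in CPM after TMM scaling. CPM is the count of a gene relative to the size of its library, and TMM sets that size so that the bulk of genes lie level between libraries. Gas5 itself differed by -2.78 on the log2 scale (SE 0.286, edgeR adjusted p = 3.76e-06), antisense minus sense, which is the direction of every fold change here. Neuronal markers were present in all libraries, with 8 of 8 passing the filter and a summed level of 254 to 373 CPM in antisense and 326 to 440 CPM in sense, and none passed (median log2 fold change -0.39). Markers of other cells were present too. The 8 astrocyte markers summed to 1186 to 1482 CPM in antisense and 1370 to 1782 CPM in sense (1 lower, median -0.23), and the 8 oligodendrocyte lineage markers to 361 to 386 and 388 to 494 CPM (none passing, median -0.20). The 6 vascular and fibroblast markers summed to 66.8 to 69.8 and 73.2 to 87.4 CPM (5 tested, none passing, median -0.28). The 7 microglia markers summed to 27.1 to 31.0 and 18.8 to 23.4 CPM (4 tested, 1 higher, median 0.51). The higher one, P2ry12, was at 4.34, 3.60 and 4.02 CPM in antisense and at 0, 0 and 0.343 CPM in sense. It passed the filter through antisense alone. No marker was at 0 in all 6 libraries, but some were close to it. Cldn5 had counts in antisense replicate 3 alone (0.268 CPM), and Tmem119 was at 0.128 to 0.394 CPM. All levels here are of RNA recovered in a pulldown from bulk material. Recovery in the pulldown, the number of cells of a type and the RNA per cell cannot be told apart. The part of these cell types in the values below was not tested.

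The microtubule-associated genes leaned lower in antisense, led by the large MAP1 genes. By edgeR's quasi-likelihood test with Benjamini-Hochberg adjustment over all genes, 3 of the 10 passed as lower (Map1a, Map1b and Map7d1), none as higher and 7 did not pass. Over all genes tested, 4.35% were called lower and 18.2% higher. Among the 3266 genes with a mean of 50 CPM or more, 10.3% were called lower, and 7 of the 10 genes here lie above that level (not Map1s, Dcx and Stmn2). The median log2 fold change was -0.26 over the 10 genes, -0.01 over all genes and -0.13 over the genes at 50 CPM or more. Of the genes at 50 CPM or more, 17.8% had a value below the median of the 10. Most marker lists leaned lower too, with medians of -0.39 for neurons and -0.28 for vascular and fibroblast cells. The medians were -0.23 for astrocytes, -0.20 for the oligodendrocyte lineage and 0.51 for microglia. All 3 antisense libraries lay below all 3 sense libraries for 6 of the 10 genes, against 13.2% of all genes and 29.5% of genes at 50 CPM or more. The 6 were Map1a, Map1b, Map1s, Map2, Map4 and Map7d1.

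**Figure D1:**
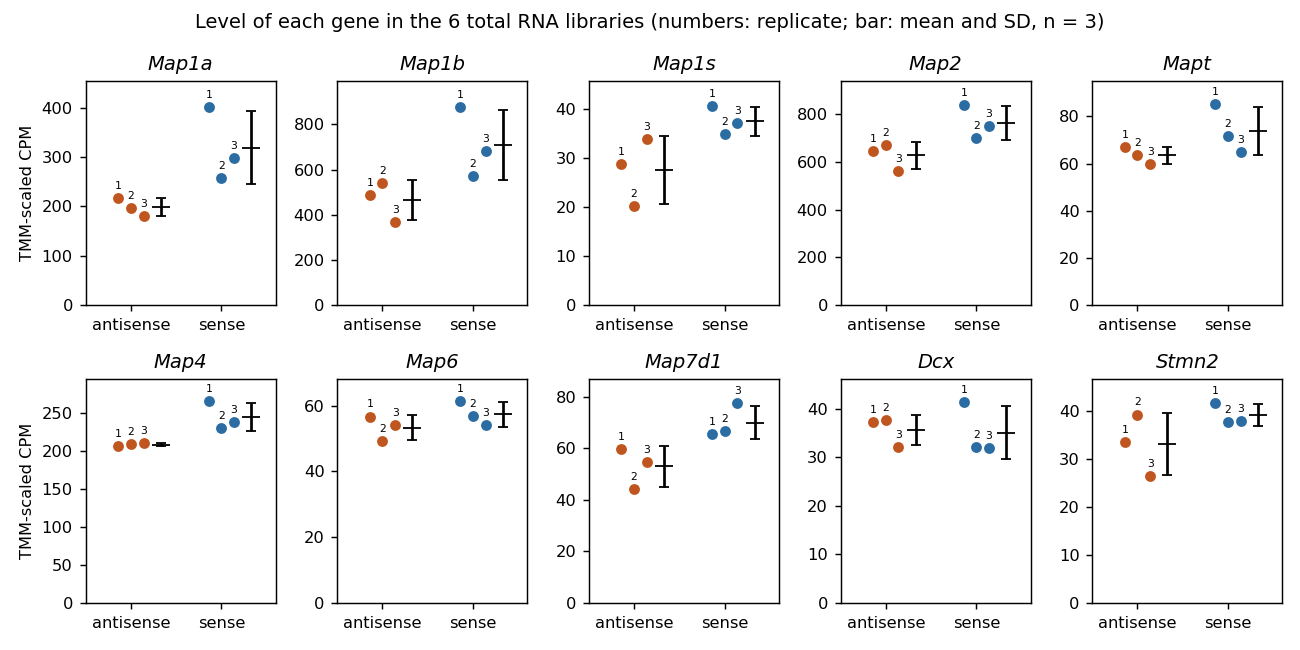
TMM-scaled CPM (vertical axes, each starting at 0) of the 10 genes in the antisense (orange) and sense (blue) libraries, with replicate numbers beside the points and the mean and SD (n = 3) as bars. Map1a spans 181 to 217 CPM in antisense and 258 to 402 CPM in sense, while the 2 groups interleave for Dcx.

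MAP1A and MAP1B are long, related proteins that are cut into a heavy and a light chain. MAP1B dominates in growing axons and MAP1A in mature dendrites. Map1a (chr2:121289590-121310832, GRCm38.p6) stood at 217, 198 and 181 CPM in antisense replicates 1, 2 and 3 and at 402, 258 and 297 CPM in sense replicates 1, 2 and 3. The groups did not overlap, and the spread was wider in sense, where replicate 1 was far above the others. The means were 199 ± 18.3 CPM and 319 ± 74.0 CPM (SD, n = 3 each), which amounts to a log2 fold change of -0.68 (SE 0.137, 95% interval -0.98 to -0.39, edgeR adjusted p = 0.00142), or 1.61-fold higher in sense. Map1a passed with each library left out in turn, at adjusted p values of 0.000313 to 0.00681.

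Map1b (chr13:99421464-99516602) was at 488, 539.8 and 366 CPM in antisense and at 876, 571 and 680.5 CPM in sense. Its highest antisense library lay only just below its lowest sense library. Its means of 465 ± 89.2 CPM and 709 ± 155 CPM gave a log2 fold change of -0.61 (SE 0.154, interval -0.94 to -0.28, edgeR adjusted p = 0.00848). Without sense replicate 1 the value was -0.44 and did not pass (edgeR adjusted p = 0.0534), and DESeq2's Wald test on all libraries also missed the threshold (adjusted p = 0.0642).

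MAP1S is the short, widely expressed relative of this family and binds the autophagy protein LC3. Map1s (chr8:70905974-70917529) was at 28.8, 20.3 and 33.9 CPM in antisense and at 40.6, 34.9 and 37.2 CPM in sense. All antisense values were below all sense values, but antisense replicate 2 was far below the rest. The log2 fold change of -0.44 (SE 0.155, interval -0.78 to -0.11) just missed the threshold (edgeR adjusted p = 0.054). It passed once antisense replicate 3 was left out (-0.62, adjusted p = 0.00641), likewise with sense replicate 2 left out (-0.50, adjusted p = 0.0448), and in edgeR with DESeq2's size factors (adjusted p = 0.0478) and with no filter on low counts (adjusted p = 0.0315).

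Map2, Mapt and Map4 encode a second family, which shares a C-terminal block of microtubule-binding repeats. MAP2 is the standard marker of dendrites, tau, from Mapt, is its axonal counterpart, and MAP4 is the broadly expressed member found also in glia and dividing cells. Map2 (chr1:66175202-66442583) was at 647, 673 and 563 CPM in antisense and at 839.7, 699 and 749 CPM in sense. The groups did not overlap, by a narrow margin between antisense replicate 2 and sense replicate 2. The log2 fold change was -0.28 (SE 0.101, interval -0.50 to -0.06), which did not pass (edgeR adjusted p = 0.0617). It passed by DESeq2's Wald test (adjusted p = 0.0415), with no filter on low counts (adjusted p = 0.0322), without antisense replicate 2 (adjusted p = 0.0491) and without sense replicate 2 (adjusted p = 0.0372).

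Mapt (chr11:104229409-104332090) was at 66.9, 63.8 and 59.9 CPM in antisense and at 85.1, 71.7 and 64.7 CPM in sense. Sense replicate 3 fell inside the antisense range, and the log2 fold change of -0.22 (SE 0.108, interval -0.45 to 0.01) did not pass (edgeR adjusted p = 0.182). Map4 (chr9:109929841-110083954) had the closest antisense values of the 10 genes, 207, 209 and 211 CPM, below sense values of 266, 231 and 239 CPM. The antisense libraries varied by 0.99% for Map4, less than the 2.51% that counting error alone would give at a mean of 1591 counts. Its log2 fold change of -0.23 (SE 0.0886, interval -0.42 to -0.04) did not pass (edgeR adjusted p = 0.076), nor with any library left out (adjusted p = 0.0526 to 0.243).

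MAP6, also called STOP, makes neuronal microtubules resistant to cold, and MAP7D1 belongs to the MAP7 family, which recruits the motor kinesin-1. Map6 (chr7:99266779-99337137) was at 56.7, 49.2 and 54.1 CPM in antisense and at 61.3, 56.7 and 54.0 CPM in sense. The groups overlapped, with a log2 fold change of -0.11 (SE 0.0983, interval -0.32 to 0.11, edgeR adjusted p = 0.501). Map7d1 (chr4:126232167-126256319) was at 59.7, 44.3 and 54.8 CPM in antisense and at 65.6, 66.8 and 77.4 CPM in sense. It was the only one of the 10 whose highest sense value was not in replicate 1. Its log2 fold change of -0.40 (SE 0.117, interval -0.65 to -0.15) passed (edgeR adjusted p = 0.0211). Without antisense replicate 2 it was -0.29 (adjusted p = 0.0822) and without sense replicate 3 -0.33 (adjusted p = 0.111), neither passing.

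Doublecortin and stathmin-2 are proteins of growing neurons: doublecortin stabilises microtubules in migrating cells, while stathmin-2 (SCG10) binds free tubulin and promotes disassembly in growth cones. Dcx (chrX:143855842-143933396) was at 37.3, 37.6 and 32.2 CPM in antisense and at 41.4, 32.1 and 31.9 CPM in sense. The groups interleaved, and the log2 fold change was 0.02 (SE 0.125, interval -0.25 to 0.29, edgeR adjusted p = 0.924), the only positive value of the 10. Its sign turned with single libraries, from -0.048 without sense replicate 3 to 0.14 without sense replicate 1. Stmn2 (chr3:8509527-8561604) was at 33.5, 39.3 and 26.4 CPM in antisense and at 41.7, 37.7 and 38.0 CPM in sense. Antisense replicate 2 lay within the sense range, and the log2 fold change of -0.24 (SE 0.134, interval -0.53 to 0.04) did not pass (edgeR adjusted p = 0.232).

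**Figure D2:**
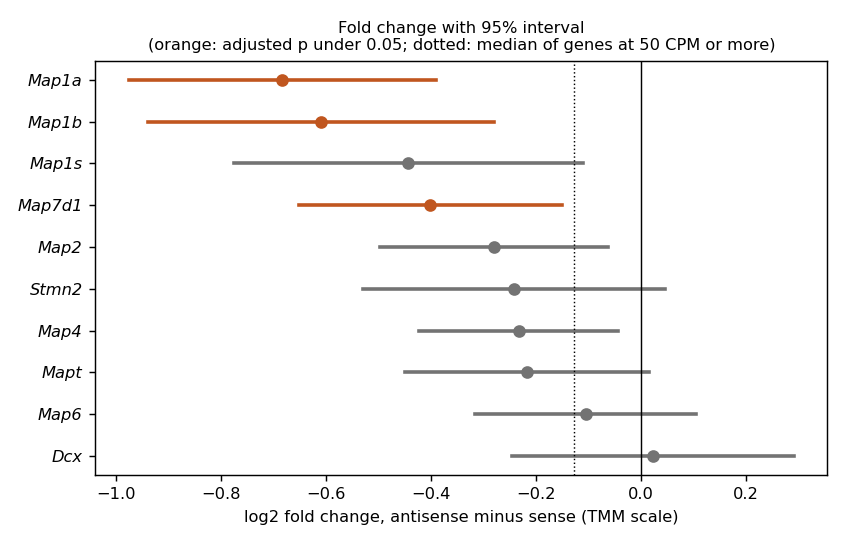
Log2 fold change, antisense minus sense, on the TMM scale (horizontal axis) of each gene as a point with its 95% interval as a line, orange where the edgeR adjusted p was under 0.05. The dotted line is the median of genes at 50 CPM or more, -0.13. Map1a lies lowest at -0.68 and Dcx highest at 0.02.

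Levels of different genes were not ranked against each other, because transcript lengths were not used here and CPM grows with length. Depth differed widely between the genes, from a mean of 209.9 counts per antisense library for Map1s to 4789 for Map2. For Map1b counting error was a small part of the spread. This gene varied by 19.2% between antisense and 21.8% between sense libraries, against counting errors of 1.68% and 1.51%. Depth alone did not set this relation. Between antisense libraries Map4 varied by 0.99% beside a counting error of 2.51%, at 1591 counts. Map1s varied by 24.8% beside 6.9%, at 209.9 counts. For Map6, at 406 counts per antisense library, the spread of 7.14% stood beside a counting error of 4.96%. Counting errors cover the sampling of reads only, because no molecular identifiers separate PCR copies from molecules.

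The order of the sense replicates was shared by many of the genes. Within sense, replicate 1 had the highest CPM for 9 of the 10, and 6 of them (Map1a, Map1b, Map1s, Map2, Map4 and Stmn2) ran from replicate 1 through replicate 3 to replicate 2. The Gas5 share ran in that order too, at 57.1% in replicate 1, 46.1% in replicate 3 and 32.7% in replicate 2, and the part of Gas5 abundance in these values was not tested. Within antisense, replicate 3 had the lowest CPM for 6 of the 10. Summed over the 10 genes, the level was 1842, 1874 and 1582 CPM in antisense and 2719, 2060 and 2269 CPM in sense, means of 1766 ± 160.2 and 2349 ± 337 CPM (SD, n = 3 each). Without sense replicate 1 the number of genes called lower was 2 of 10, when 2.53% of all genes were. Without sense replicate 2 it was 5 of 10, when 5.24% of all genes were.

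The direction rests on how libraries are scaled. Scaled to the counts outside Gas5 in the manner of CPM, with no further factor, the 10 genes summed to 2670, 2703 and 2293 in antisense and 3848, 3030 and 3237 in sense, and the fold changes stayed close to those on the TMM scale, at -0.67 for Map1a, -0.59 for Map1b and -0.39 for Map7d1. On library totals that include Gas5, all 10 log2 fold changes were positive, from 0.074 for Map1a to 0.76 for Dcx. The median of all genes then moved to 0.70, so that 9 of the 10 stayed below that median. The deposited counts themselves were higher in antisense, summed over 3 libraries, for 6 of the 10 genes, for example 816 against 654 for Dcx, and lower for Map1a, at 4543 against 5934.

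**Figure D3:**
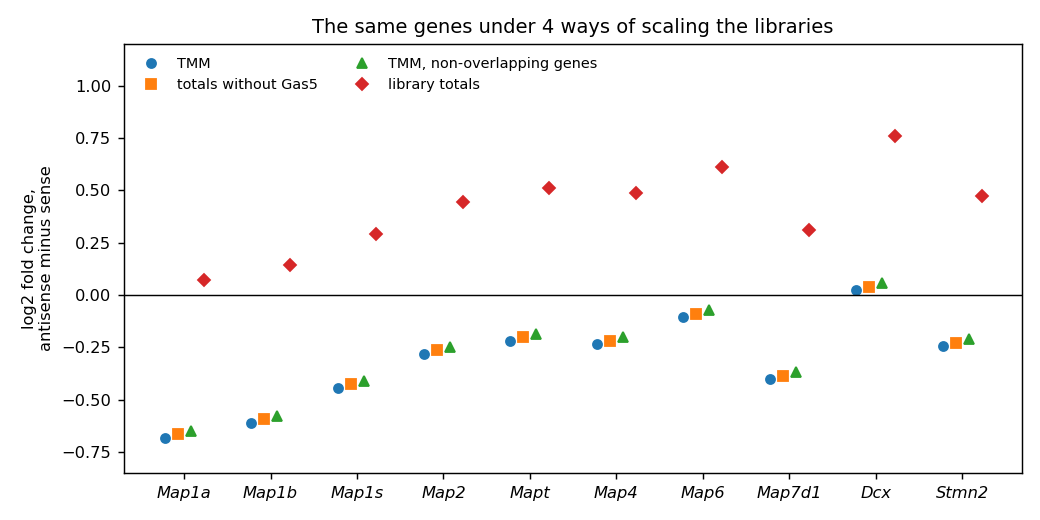
Log2 fold change, antisense minus sense (vertical axis), of each gene under TMM scaling, totals without Gas5, TMM on genes that overlap no other gene, and library totals including Gas5. The first 3 nearly coincide for every gene, whereas library totals place all 10 above 0, from 0.074 for Map1a to 0.76 for Dcx.

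A share within the 10-gene total needs no scaling between libraries. Map1a made up 11.8%, 10.5% and 11.4% of the summed counts of the 10 genes in antisense and 14.8%, 12.6% and 13.1% in sense, so that its share was lower in every antisense library. Its mean share was 11.3% ± 0.648 against 13.5% ± 1.15 (SD, n = 3 each). In share, though not in level, Map2 went the other way, at 35.1%, 35.9% and 35.6% in antisense and 30.9%, 33.9% and 33.0% in sense. Dcx was also separated, at 2.03%, 2.01% and 2.03% against 1.53%, 1.56% and 1.41%. These 3 genes reached an exact two-sided permutation p of 0.1, the smallest that 3 against 3 libraries allow, and 0.333 after adjustment over the 10 genes, so no share passed. Map1b overlapped between groups (26.5%, 28.8% and 23.1% against 32.2%, 27.7% and 30.0%), as did the shares of the other 6. Shares within a total are tied, so lower shares of some genes raise those of others. With Map1b left out of the sum, the difference in mean share of Map2, antisense minus sense, was 1.63 percentage points, against 2.94 with it. For Map1a it was -4.04 against -2.21.

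**Figure D4:**
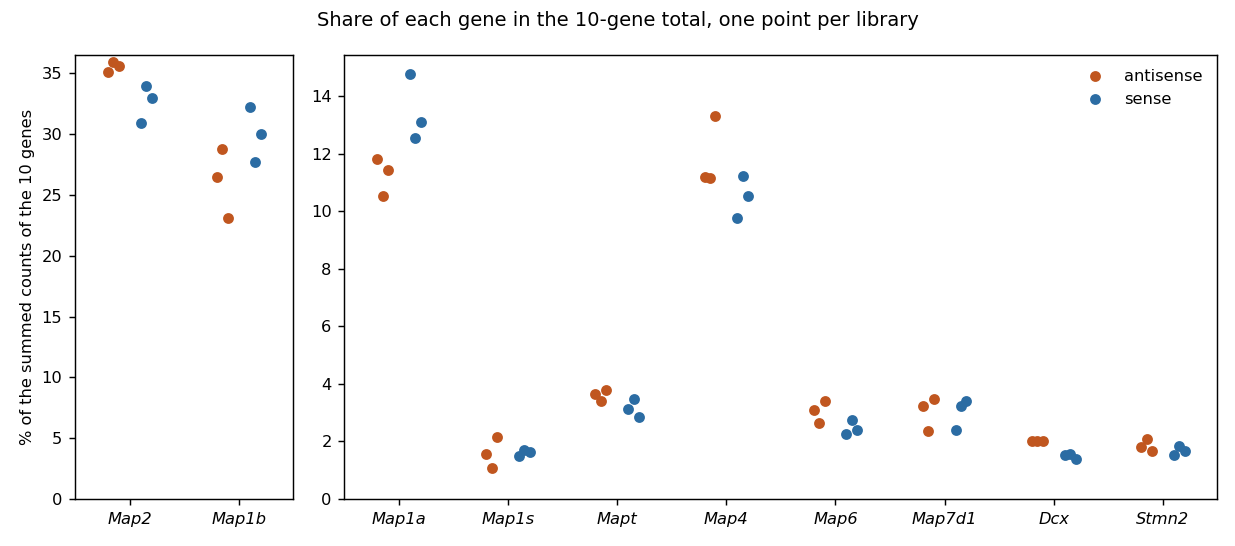
Share of each gene in the summed counts of the 10 genes (vertical axes in percent, starting at 0), 1 point per library, antisense orange and sense blue, with Map2 and Map1b in a panel of their own. Antisense points lie below sense points for Map1a and above them for Map2 and Dcx, and the groups overlap for the other 7.

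Ratios between pairs of the genes in the same library also need no scaling. They restate the same counts as the shares and were not tested. Only some of the possible pairs are given, among them the genes with the lowest and highest fold changes. Map1a counts were 0.336, 0.294 and 0.321 of those of Map2 in antisense and 0.478, 0.37 and 0.397 in sense, with no overlap. Map1b counts were 0.754, 0.802 and 0.65 of those of Map2 in antisense and 1.04, 0.817 and 0.909 in sense, also with no overlap, though antisense replicate 2 and sense replicate 2 lay close together. Map1a counts were 0.445, 0.366 and 0.494 of those of Map1b in antisense and 0.458, 0.453 and 0.437 in sense, so the MAP1 pair kept overlapping ratios. Dcx counts were 0.0577, 0.0559 and 0.057 of those of Map2 in antisense and 0.0494, 0.0459 and 0.0426 in sense.

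The authors' deposited table of the same comparison gives sense over antisense. There, in the authors' deposited table, an adjusted p under 0.05 was given for 4 of the 10 genes: Map1a (log2 fold change 0.69, adjusted p = 1.16e-05), Map2 (0.29, 0.0256), Map7d1 (0.41, 0.0263) and Map4 (0.24, 0.0423). Map1b, at 0.61 with a standard error of 0.248, did not pass in the authors' deposited table (adjusted p = 0.0748). With the sign turned, the table's log2 fold changes differ little from those fitted here, while the standard error of Map1b is 0.154 in the edgeR fit. Map1a and Map7d1 were called by edgeR, by DESeq2's Wald test and in the authors' deposited table alike.

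Promoter sequences, from 250 bases before to 50 bases after a start site, were read for the genes that passed as lower and for Dcx, the gene with the highest estimate, so that the start regions of the genes that differed most in fold change can be set side by side. They come from RefSeq on GRCm38.p6, run 5′ to 3′ on the strand of the gene, and 7 of the 10 genes had an entry (not Mapt, Map6 and Stmn2). Capitals mark the GC box GGGCGG, the CCAAT box CCAAT and the TATA box TATAAA, each searched on both strands and counted on its own, overlapping matches included. Map1a lies at chr2:121289352-121289651 on the plus strand, Map1b at chr13:99516553-99516852 on the minus strand, Map7d1 (the first of 2 entries) at chr4:126256270-126256569 on the minus strand and Dcx (the first of 2 entries) at chrX:143933170-143933469 on the minus strand.
Map1a: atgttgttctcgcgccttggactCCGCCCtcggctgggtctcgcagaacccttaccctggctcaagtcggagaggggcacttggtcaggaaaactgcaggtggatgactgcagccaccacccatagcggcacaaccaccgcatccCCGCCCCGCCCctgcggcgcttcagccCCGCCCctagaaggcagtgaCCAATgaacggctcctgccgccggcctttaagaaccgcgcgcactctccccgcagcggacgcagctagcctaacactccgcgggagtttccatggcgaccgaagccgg
Map1b: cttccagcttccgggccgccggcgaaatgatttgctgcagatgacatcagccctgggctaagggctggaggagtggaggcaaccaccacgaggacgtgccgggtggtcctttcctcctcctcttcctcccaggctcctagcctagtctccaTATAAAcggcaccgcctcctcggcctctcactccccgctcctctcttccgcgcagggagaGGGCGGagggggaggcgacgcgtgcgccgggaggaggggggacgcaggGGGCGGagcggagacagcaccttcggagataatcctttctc
Map7d1: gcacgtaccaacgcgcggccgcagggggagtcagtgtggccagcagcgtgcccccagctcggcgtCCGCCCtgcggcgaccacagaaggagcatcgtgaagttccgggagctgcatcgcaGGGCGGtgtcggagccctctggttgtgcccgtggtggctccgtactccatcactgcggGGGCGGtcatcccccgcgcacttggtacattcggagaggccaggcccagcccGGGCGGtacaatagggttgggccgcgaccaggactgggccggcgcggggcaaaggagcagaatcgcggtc
Dcx: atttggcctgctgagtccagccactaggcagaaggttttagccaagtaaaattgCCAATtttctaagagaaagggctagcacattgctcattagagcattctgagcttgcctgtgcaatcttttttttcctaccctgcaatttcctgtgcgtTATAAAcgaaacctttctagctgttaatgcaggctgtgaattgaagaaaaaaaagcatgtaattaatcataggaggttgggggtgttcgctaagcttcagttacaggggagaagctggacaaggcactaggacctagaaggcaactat

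The start regions of the 3 lower genes were rich in G and C and that of Dcx was not. The G and C content was 65.7% for Map1a, 65.7% for Map1b, 70.0% for Map7d1 and 43.0% for Dcx, against a median of 52.7% over 32851 promoters. Map1a had 4 GC boxes and 1 CCAAT box, Map1b 2 GC boxes and 1 TATA box, and Map7d1 4 GC boxes. Dcx had no GC box in this window, with 1 CCAAT box and 1 TATA box. Among the other genes that did not pass, the G and C content was 77.7% with 5 GC boxes for Map2 and 59.3% with 2 GC boxes for Map1s. The 2 entries of Map4 differed, at 73.3% with 3 GC boxes and 46.0% with no GC box. Of all promoters 35.7% held a GC box, 37.4% a CCAAT box and 13.6% a TATA box. A match is a description of the letters and was not tested as a binding site.

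Neighbouring genes that share sequence could lend reads to a gene, since counting by strand is not given in the sources used here. Map1b, Map1s, Map7d1, Dcx and Stmn2 overlapped no other gene of the RefSeq table. Map1a overlapped Trp53bp1, a DNA damage response gene, over 6765 bases and Ppip5k1, an inositol phosphate kinase gene, over 276 bases. Trp53bp1 was at 162, 161 and 164 CPM in antisense and at 184, 165 and 178 CPM in sense (log2 fold change -0.11, SE 0.0863, edgeR adjusted p = 0.402), and Ppip5k1 also did not pass (-0.06, edgeR adjusted p = 0.683). Map6 overlapped the noncoding gene Gm26705 over 440 bases, at 28.1, 24.4 and 22.6 CPM in antisense and 27.8, 37.2 and 24.3 CPM in sense (edgeR adjusted p = 0.277). The pseudogene Gm4734 within Map4, and the small nucleolar RNA gene Gm24729 and the pseudogene Gm25411 within Map2, had between 0.316 and 4.21 CPM in each library. Gm40449 within Map6, Gm51629 and Gm18034 within Map2 and LOC115487882 within Mapt had no counted row, so their levels are unknown. Deposited counts of Map1b and Map7d1 lay within 0.001 of a whole number in every library. Those of the other 8 lay farther from the nearest whole number in at least 1 library, by at most 0.484 of a count. Salmon can divide a read between transcripts that share its sequence.

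Among 77 other microtubule genes, listed by role, 76 were tested. Of these, 8 were lower, 1 was higher and 67 missed the threshold, and their median log2 fold change was -0.20. That is 10.5% called lower, beside 4.35% of all genes and 10.3% of genes at 50 CPM or more. Of all genes, 18.2% were called higher. The number lower was 2 without sense replicate 1 and 13 without sense replicate 2, when 2.53% and 5.24% of all genes were lower. It was 4 without antisense replicate 1 or sense replicate 3, when 2.75% and 2.33% of all genes were lower. Without antisense replicate 3 it was 5, when 3.6% of all genes were lower. Of the 9 called genes, only Map6d1 and Ttbk1 passed with each library left out in turn. Map6d1, Mapre3, Apc and Nav1 overlapped other genes in RefSeq (Gm41431 for Map6d1), and the part of these overlaps in their values was not tested.

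Of 14 other side-binding proteins tested, 1 was higher, none was lower and 13 did not pass (median -0.21). The higher one was Map6d1, a small relative of Map6, at 11.0, 10.9 and 15.0 CPM in antisense and 3.64, 2.80 and 3.25 CPM in sense. Its log2 fold change was 1.92 (SE 0.232, edgeR adjusted p = 1.53e-05). Its lowest antisense value was well above its highest sense value. The doublecortin-like kinase genes Dclk2 (-0.27, adjusted p = 0.0699) and Dclk1 (-0.26, adjusted p = 0.0731) did not pass. None of the 3 other stathmins passed, with values of -0.31 for Stmn4, 0.21 for Stmn1 and 0.00 for Stmn3.

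Of 17 genes for proteins that bind growing plus ends, 3 were lower and 14 did not pass (median -0.23). They were Apc (-0.46, SE 0.124, adjusted p = 0.013), which links plus ends to the cell cortex, the end-binding gene Mapre3 (-0.33, adjusted p = 0.0208) and the neuron navigator gene Nav1 (-0.33, adjusted p = 0.0349). Apc lost its call without sense replicate 1 (adjusted p = 0.0774). Of 9 minus-end binding and severing genes, Camsap2, which caps free minus ends, was lower (-0.27, adjusted p = 0.0414) and lost its call whichever library was left out, whereas Camsap1 (-0.20) and the severing gene Spast (-0.18) did not pass.

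Of 13 genes listed for the phosphorylation of microtubule-associated proteins (kinases and the activator gene Cdk5r1), 2 were lower and 11 did not pass (median -0.18). The tau tubulin kinase gene Ttbk1 was at 50.8, 48.5 and 50.6 CPM in antisense and 75.6, 66.2 and 69.9 CPM in sense, with no overlap (-0.50, SE 0.0934, edgeR adjusted p = 0.000824). Cdk5r1, the activator of the tau kinase CDK5, had a value of -0.41 (adjusted p = 0.042), and the tau kinase gene Mark2 did not pass (-0.29, adjusted p = 0.0602). Of 12 genes for tubulin-modifying enzymes, Vash1, which removes the terminal tyrosine of tubulin, was lower (-0.47, adjusted p = 0.0321), and the deacetylase genes Sirt2 (-0.25) and Hdac6 (-0.26) did not pass. Of 8 genes of the Lis1 complex and the collapsin response mediator proteins, Dpysl3 was lower (-0.36, adjusted p = 0.0388), while Dpysl5 (-0.36) and Dpysl4 (-0.28) did not pass.

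**Figure D5:**
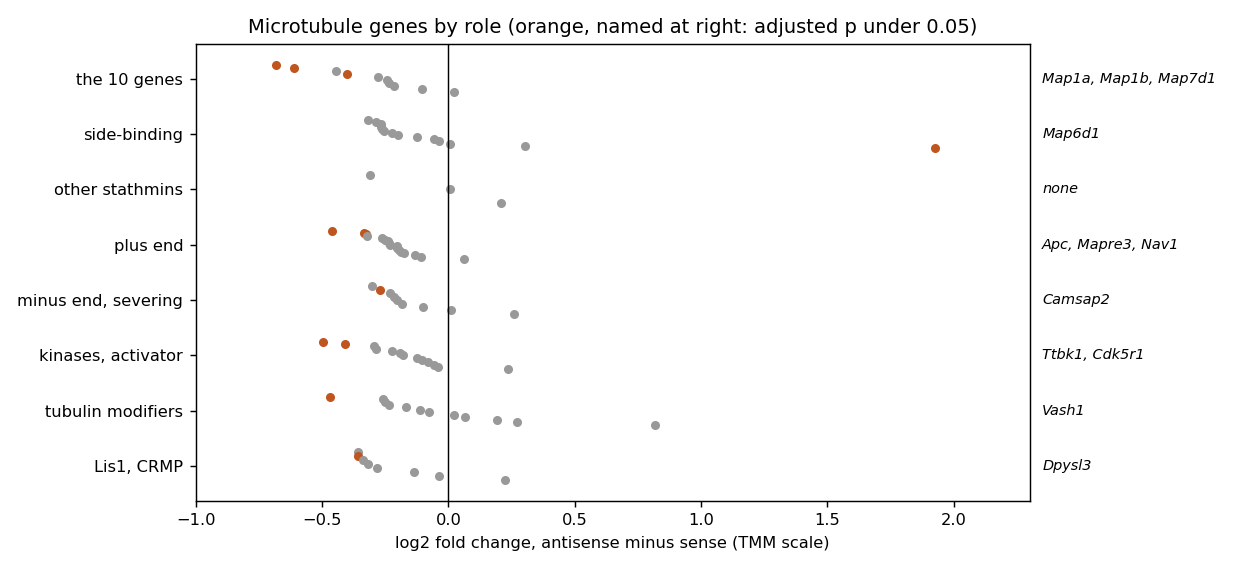
Log2 fold change, antisense minus sense, on the TMM scale (horizontal axis) for the 10 genes and for the 76 other tested microtubule genes by role, 1 point per gene, orange and named at the right where the edgeR adjusted p was under 0.05. Map6d1, at 1.92, is the single called gene above 0.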

How the data were processed

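Of the 2 assays, total RNA and small RNA, only the total RNA libraries (3 antisense, 3 sense) were used here. The submitters' processing notes name Salmon, DESeq and GRCm38, with settings not given in the sources used here. The authors deposited estimated counts per gene, which were rounded. The authors' deposited comparison table holds a mean normalised signal, log2 fold changes and p-values, and was only set beside the results.

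Rows were kept by filterByExpr (minimum count 10). TMM scaling and edgeR 4.0.16's quasi-likelihood test (R 4.3.3) compared antisense with sense over 20049 genes, two-sided, at a Benjamini-Hochberg rate of 0.05. A standard error is the fold change over the square root of F, and 95% intervals use the moderated degrees of freedom. The steps were tested on simulated data. DESeq2 1.42.0, other scalings, other filters, a replicate block and leaving out each library were alternatives. Each of the 10 genes is named, and from each list the 3 genes with the smallest p and any called ones where 5 or fewer were called. The genes, lists and tests were chosen with earlier results of these data known. Gene spans matched by symbol for 10 of 10 genes in RefSeq GRCm38.p6.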

Additional observations from a re-analysis of the deposited data

How the results depend on the processing

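Directions held on every scale except library totals that include Gas5. There the log2 fold changes were 0.074 for Map1a, 0.14 for Map1b, 0.29 for Map1s, 0.45 for Map2, 0.51 for Mapt, 0.49 for Map4, 0.61 for Map6, 0.31 for Map7d1 and 0.47 for Stmn2, with medians of 0.46 over the 10 genes, 0.52 over the other microtubule genes and 0.70 over all genes. On that scale 0 of the 10 genes were lower and 2 higher (Dcx and Map6), 0 and 32 of the other microtubule genes, and 62 and 12804 of all genes, against 873 and 3658 under TMM. The larger Gas5 share in sense lowers all other shares there. With no filter on low counts 5 of the 10 genes were lower, when 998 of all genes were lower and 5027 higher. The median of all genes was then 0.11. With a minimum count of 50, under which fewer genes are tested, 402 genes were lower and 1795 higher, and 2 other microtubule genes were lower. TMM on genes overlapping no other gene was an alternative chosen after seeing the data. There 4 other microtubule genes and 657 of all genes were lower. Same-numbered libraries deviated from their group means with correlations of 0.06, -0.08 and -0.01, and differently numbered ones with -0.15 to 0.158. With no libraries known to be paired as a reference, these values cannot tell whether same-numbered libraries share a culture or batch. With a replicate block 4 of the 10 genes were lower (Map1s, at -0.46, joining the 3) and 5 of the other microtubule genes. Of all genes, 695 were lower and 3428 higher with that block. Leaving out 1 library gave 2 to 5 of the 10 genes lower, 2 to 13 of the other microtubule genes and 492 to 1100 of all genes, and moved Dcx between -0.048 and 0.14. The cause of the other changes was not tested. Map1s, Dcx and Stmn2 had the fewest counts, at an average of 209.9 to 272 per antisense library. Their antisense libraries varied by 24.8%, 8.63% and 19.5%, beside counting errors of 6.9%, 6.06% and 6.29%.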

Other observations

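The genes outside the 10 whose levels over the 6 libraries ran closest to the mean profile of the 10 were Wdfy3, which encodes a large autophagy scaffold, the growth kinase gene Mtor, the matrix gene Fn1, Fam120a and the membrane skeleton gene Epb41l1. They were the nearest of 3259 genes at a mean of 50 CPM or more, with root-mean-square differences of 0.0198 to 0.0374 on the log2 scale, against a median of 0.164 over those genes. Wdfy3 was at 313, 301 and 293 CPM in antisense and at 413, 345 and 366 CPM in sense. The likeness is a description over 6 libraries that share their scaling, and it says nothing of shared function.

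Of the 10 genes themselves, Map2 ran closest to their mean profile, with a root-mean-square difference of 0.0618, and Map1s farthest, at 0.241. Map1s had its lowest value in antisense replicate 2, as did Map6 and Map7d1. In that library Map1b, Map2, Dcx and Stmn2 had their highest antisense values.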
